A study of Bos taurus with 72 samples.

Results

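The genes described here are 100 genes of bovine mammary epithelial cells (BMECs) whose transcripts were highest in cells without any essential amino acid (EAA), and lower in each of 10 media that gave back a single EAA. The cells were primary BMECs at 6 passages, grown from mammary tissue of dairy cows, parted from fibroblasts by their response to trypsin, serum-starved overnight and then held in the test medium for 6 h. NEG was DMEM-F12 medium devoid of all EAA, POS was complete DMEM-F12 medium, and Arg, His, Ile, Leu, Lys, Met, Phe, Thr, Trp and Val were NEG with that EAA alone, each at its concentration in POS. The 12 treatments had 6 replicates each, which gave 72 libraries. The sources speak of biological replicates and do not say whether these came from separate animals or cultures, so the spread between them may be partly technical.

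The genes were chosen from the measured values. Of the 29550 rows in the deposited table of FPKM (reads on a gene divided by its length and by a factor for the library), 27570 carry Ensembl bovine identifiers, and 8642 of these had a mean FPKM of at least 5 over the 72 libraries, apart from ENSBTAG00000054661, a row of 55 bp that was left out. For each treatment the median of log2(FPKM + 1) over its 6 libraries was taken. NEG had the highest of the 12 medians in 1775 genes (20.5%) and the lowest in 700 (8.10%). In 1521 of these POS was not the lowest, and in 981 Leu and Val were also not the lowest pair. The score of a gene is the highest of the 10 single-EAA medians minus the NEG median, and the 100 genes with the most negative scores are the members. Every difference from NEG in these genes was therefore fixed by the choice and is given as a description.

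Mammary epithelial cells take up EAA to build milk proteins, and they sense both their lack and their return. When an amino acid is missing, uncharged tRNA activates the kinase GCN2, which slows translation and favours the transcription factor ATF4. When amino acids are present, several of them, leucine and arginine best known among them, activate the mTORC1 kinase, which favours translation and growth and restrains autophagy. The files pair none of the identifiers with gene names and no identifier was found in the reference table used, so the functions of the 100 genes, their sequences, the members of such pathways and the markers of epithelial cells and fibroblasts were not analysed here.

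The differences that define the group were small. Scores ran from −0.45 to −0.24 with a median of −0.27 on the log2 scale, so that even the single-EAA treatment nearest to NEG was below NEG by a ratio of 1.36 in the first member and of 1.18 in the last, both on FPKM + 1, a scale that understates the change of low genes. A score under −0.3 was reached by 25 members and one under −0.4 by 3. At the limit, the 2 last members inside had scores of −0.2435 and −0.2428, and the 2 first genes outside had −0.2425 and −0.2422, so the number of 100 marks no gap in the data. The 6 NEG libraries of a member had a median SD of 0.35 on the log2 scale, or 0.11 when NEG_2 was left out. In 33 members the score was larger in size than the SD of NEG, and in 96 it was larger than the SD without NEG_2.

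Single libraries moved with the members as a group. The mean of log2(FPKM + 1) over the 100 members was 5.69 ± 0.32 (SD, n = 6) in NEG, where NEG_2 had 6.32 and the others 5.43 to 5.65. In bulk RNA, fewer cells of a kind and less RNA per cell cannot be told apart. NEG_2 was the highest NEG library in 98 members and NEG_6 the lowest in 73. Over all 8642 genes NEG_2 was the highest in 49.5% and the lowest in 37.3%. The FPKM of NEG_2 was 1.75 times the median of the other NEG libraries in the median member (range 1.10 to 2.36), against 1.08 times over all 8642 genes. Without NEG_2, 83 of the 100 members were still among the first 100, against 75 to 78 without any 1 of the other NEG libraries. All 100 still met the conditions, and the median difference from NEG changed to −0.96 in Val, −0.32 in Phe and −0.26 in Thr.

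The treated libraries were lower in most cases. In Phe the mean over the members ran from 5.16 to 5.39, in Lys from 4.65 to 5.02, and in Trp from 4.42 to 5.22, all below the lowest NEG library. A single library of His (His_1, 5.50), Met (Met_1, 5.46), Thr (Thr_2, 5.46), Val (Val_3, 5.60) and POS (POS_1, 5.83) reached the range of NEG, while the other 5 of Val lay between 4.44 and 4.60. His_1, Met_1, Val_3 and POS_1 also had the most genes above 0 within their treatments (17296, 18058, 18393 and 17743). Thr_2 did not, and NEG_2 had the fewest of NEG (16596). The part of the number of genes in the members' levels was not tested. At the low end stood Leu_1 (2.60), POS_4 (3.55) and Arg_4 (3.68). These 3 libraries also had the fewest genes above 0, at 10495, 13537 and 11838 against 15211 to 18393 in the other 69, and they were the only libraries in which members had no read (27, 4 and 7 members). By the paper's mapping statistics Leu_1 and Arg_4 also had the lowest mapping efficiency of all samples, while POS_4 lay among the rest. In all, 71 members had a read in every library. With these 3 libraries left out, 76 of the 100 members were still among the first 100, and 62 with NEG_2 left out as well. When the mean of the 6 libraries took the place of the median, 36 members were among the first 100 and 64 still met the conditions.

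**Figure D1:**
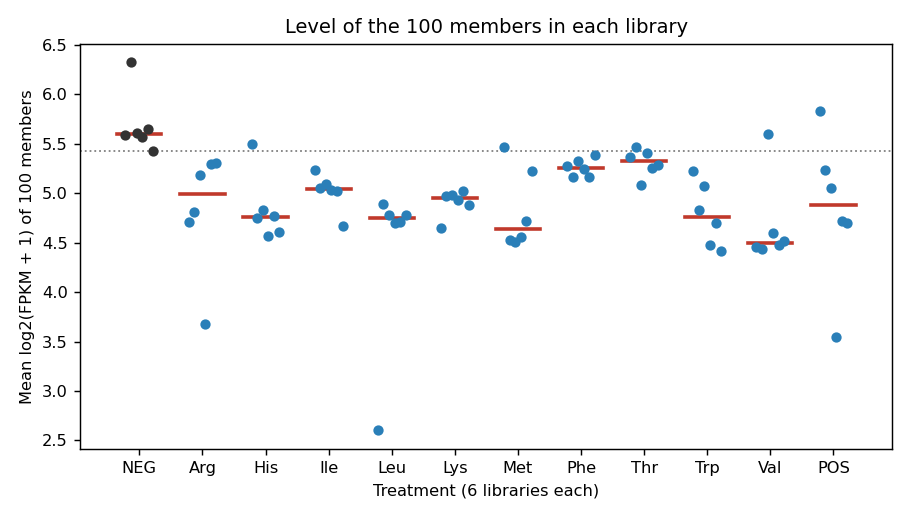
Mean of log2(FPKM + 1) over the 100 members in each library, by treatment; red lines are medians of 6 libraries and the dotted line is the lowest NEG library (5.43). Phe and Thr lie closest under NEG, single libraries of His, Met, Thr, Val and POS reach above the line, and Leu_1, POS_4 and Arg_4 lie lowest.

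Across the 11 treatments the members lay lowest in Val and closest to NEG in Thr and Phe. The median difference over the 100 members was −0.99 in Val (a ratio of 0.502 on FPKM + 1), −0.83 in Leu, −0.82 in Met, −0.78 in Trp and −0.75 in His. It was −0.67 in POS, −0.60 in Lys, −0.53 in Arg and −0.52 in Ile. In Phe it was −0.34 (ratio 0.788) and in Thr −0.29 (ratio 0.820). Over all 8642 genes the same medians lay between −0.13 (Val) and −0.030 (Lys). Thr was the highest of the 10 single-EAA medians in 70 members, Phe in 15, Ile in 7, Arg in 5, and His, Lys and Val in 1 each, so the score of most members is the distance between Thr and NEG. The lowest of the 12 medians was Val in 41 members, Met in 20, Trp in 12, Leu in 11, His in 9, Lys in 4, Arg in 2 and Ile in 1. Over all 8642 genes Val was the lowest in 26.6%, Thr in 16.3%, Leu in 9.18%, Met in 4.55% and His in 4.27%. Arg was the lowest in 3.68%, Phe in 3.37%, Lys in 1.85%, and Trp and Ile in 1.63% each. NEG and POS, barred from this place in the members, were the lowest in 8.10% and 18.8% of all genes. The members' counts and these shares are therefore not directly comparable.

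**Figure D2:**
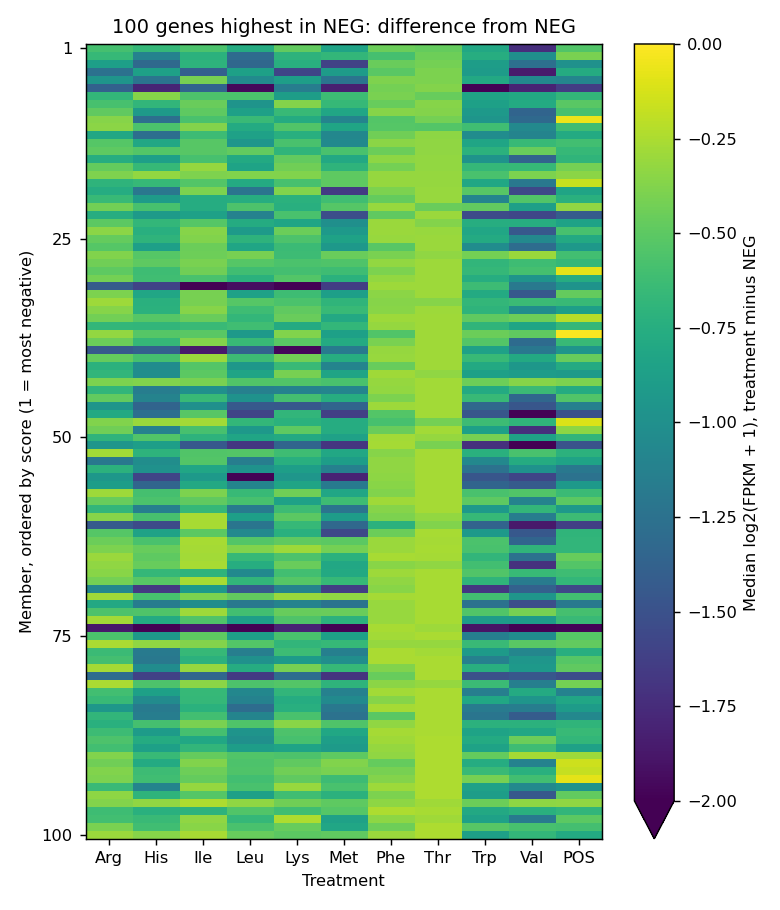
Median log2(FPKM + 1) of each treatment minus that of NEG, with the 100 members as rows in the order of their scores and the 11 treatments as columns. Colours run from 0 (yellow) to −2 or below (dark blue); the columns of Phe and Thr are pale throughout, with medians of −0.34 and −0.29, and the column of Val is the darkest on average, with a median of −0.99.

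The spread among the single EAA differed from member to member. The distance between the highest and the lowest of the 10 single-EAA medians ranged from 0.25 to 3.21 within a member, with a median of 0.86, against a median of 0.74 over all 8642 genes. The largest single difference from NEG was −3.48, in Val.

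In the complete medium the members took places from next to NEG down to next to last, the last being barred by the choice. POS came directly after NEG in 10 members, with a median difference from NEG of −0.13. It stood at places 3 to 5 in 14 members, at places 6 to 9 in 55, and at place 10 or 11 in 21, where the median difference was −0.76. The difference between POS and NEG ranged from −1.98 to −0.023. POS was above the median of the 10 single-EAA treatments in 48 of the 100 members.

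The 2 members with the most negative scores are shown in full. ENSBTAG00000046569 (459 bp, with a median of 96.5 reads in a library) had FPKM in NEG of 15.6, 18.7, 19.8, 21.5, 22.1 and 38.7, the highest in NEG_2. The mean was 22.7 ± 8.17 (SD, n = 6). In Phe the lowest, median and highest FPKM were 13.9, 14.9 and 16.9, and in Thr they were 11.04, 14.7 and 18.6. All treated medians lay under the lowest NEG library, although the higher libraries of Phe and Thr reached into the range of NEG. FPKM ran from 9.05 over 14.5 to 15.1 in Lys, from 10.1 over 13.6 to 14.8 in Ile, and from 9.76 over 11.1 to 15.3 in Met. In Leu the lowest, median and highest were 0 (Leu_1), 11.7 and 13.0, and in Trp 5.78, 11.4 and 14.6. These 5 treatments did not overlap NEG, and in Leu_1 no read fell on the gene. In Arg the values were 5.30, 13.4 and 16.2, in His 5.80, 12.7 and 19.0, and in Val 4.36, 5.50 and 15.6. POS ran from 1.26 over 14.1 to 23.8. Arg overlapped NEG through Arg_6, Val through Val_3, and His through His_1 and His_3. The 3 highest POS libraries lay within the range of NEG.

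ENSBTAG00000045628 (585 bp, with a median of 45 reads) was lower in level, with FPKM in NEG of 5.94, 7.14, 8.22, 8.35, 8.37 and 11.01, the highest again in NEG_2, and a mean of 8.17 ± 1.68 (SD, n = 6). The treatments nearest to NEG were POS, at 3.70, 6.07 and 8.28 (lowest, median and highest FPKM), and Thr, at 4.44, 5.88 and 8.41. Phe followed at 4.29, 5.19 and 6.46. Medians were lowest in Leu (2.77, from 1.39 to 9.18) and His (3.28, from 2.503 to 6.64). In Leu the highest value came from Leu_1, the library in which ENSBTAG00000046569 had no read. Arg ranged from 0 (Arg_4) to 7.78 with a median of 5.09, Ile from 0.888 to 8.43 with a median of 4.62, and Lys from 2.12 to 7.30 with a median of 4.70. Met had a median of 4.81 (from 2.84 to 7.07), Trp of 4.53 (from 2.80 to 6.56) and Val of 3.63 (from 1.82 to 7.12). All 11 treatments overlapped NEG in this gene, so its place among the first members rests on medians of values that overlap. Leaving out 1 library at a time, the score of ENSBTAG00000045628 rose from −0.44 to −0.27 without Arg_1, Arg_2 or Arg_4, and the gene stayed among the first 100 in all 72 cases. The score of ENSBTAG00000046569 rose from −0.45 to −0.28 without Thr_1, Thr_3 or Thr_5, and the gene was not among the first 100 without Leu_2, Leu_4 or Leu_6. By limma, neither gene differed among the 8 EAA described further on (F test, adjusted p = 0.26 for ENSBTAG00000046569 and 0.68 for ENSBTAG00000045628).

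**Figure D3:**
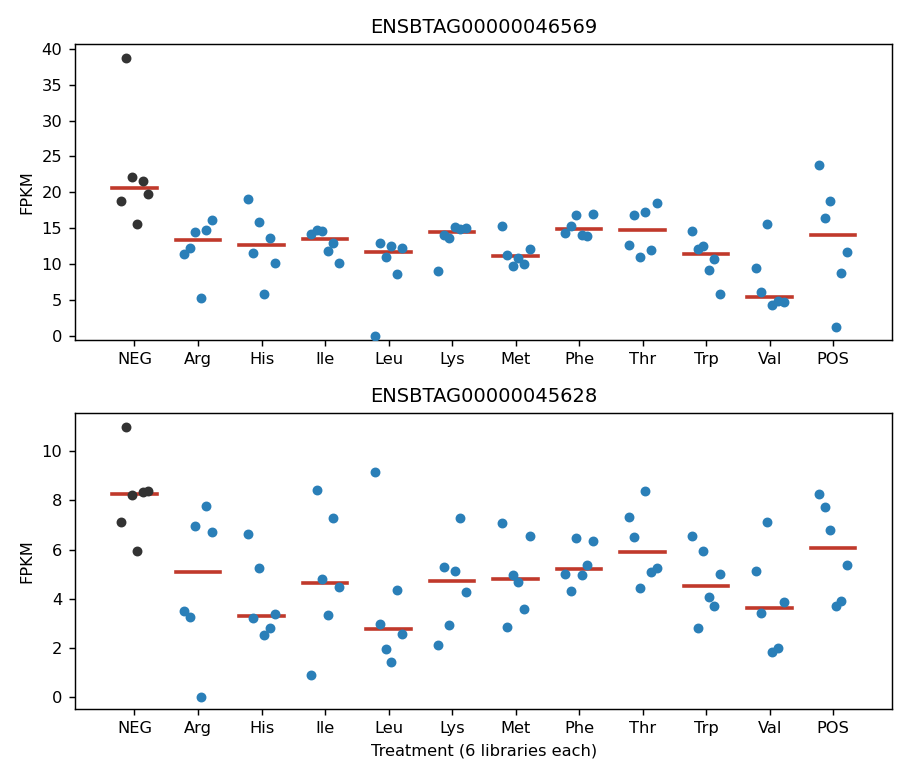
FPKM of the 2 members with the most negative scores in all 72 libraries, by treatment; points are libraries in the order of their replicate numbers and red lines are medians. In the upper gene NEG_2 stands at 38.7 above all other libraries, and in the lower gene every treatment reaches into the range of NEG.

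The members were short genes, a property that the choice did not use. The length recovered from the FPKM (see the account of the processing) had a median of 1112 bp over the 100 members, with the middle part from 762 to 1436 bp. Over all 8642 genes the median was 2387 bp, and over the 981 genes that met the conditions it was 1569 bp. When the 8642 genes were ordered by length in 5 classes of equal size, 69 members fell in the class of the shortest (46 to 1350 bp), 24 in the next (1351 to 2032 bp), 6 in class 3, none in class 4 and 1 in the class of the longest. The rule turned around, with NEG the lowest of the 12 medians and the other conditions mirrored, gave 100 genes with a median length of 3932 bp, of which 50 were in the class of the longest. The members were also higher in level than all 8642 genes, with a median of mean FPKM of 28.5 against 17.4, and the median number of reads per library was 525 in the median member against 696 over all genes.

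Short genes as a whole lay lower than in NEG in every treatment. Over the 1729 shortest genes the median difference from NEG was between −0.16 (Ile) and −0.39 (Val), with −0.18 in Thr and −0.21 in Phe. Over the 1729 longest it was between 0.076 (Ile) and 0.19 (Trp). Members in the class of the shortest lay below that background, as the choice favours, at −0.29 in Thr, −0.36 in Phe and −1.06 in Val. Without NEG_2 the shortest genes lay between −0.14 (Ile) and −0.37 (Val). NEG_2 itself was 0.61 above the gene's NEG median in the shortest genes and 0.40 below it in the longest, while the other 5 NEG libraries lay between −0.036 and 0.011 in the shortest genes and between −0.0026 and 0.030 in the longest. When the trend on gene length was removed from each library, an alternative added after the data were seen, 73 of the 100 members still met the conditions and 42 were among the first 100, whose median length was then 1610 bp. ENSBTAG00000046569 held place 12, and ENSBTAG00000045628 no longer met the conditions. After this removal the median of the members lay below NEG in all 11 treatments, from −0.65 in Val to −0.20 in Thr. The members were chosen as low against NEG in these same libraries, so this outcome was favoured by the choice and is a description. What sets the trend on length was not tested, and in these values a response to the amino acids and the trend cannot be told apart.

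**Figure D4:**
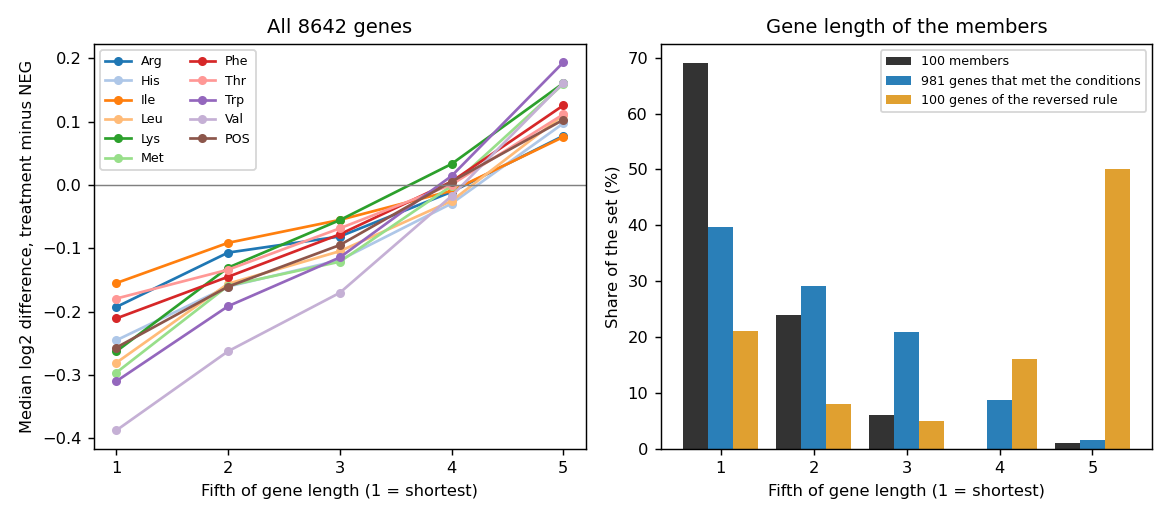
Left, median log2 difference of each treatment from NEG over the 8642 genes in 5 classes of gene length, class 1 being the shortest; right, share of the 100 members, of the 981 genes that met the conditions and of the 100 genes of the reversed rule in each class. The lines of all 11 treatments rise from class 1 (−0.39 to −0.16) to class 5 (0.076 to 0.19), and 69% of the members are in class 1.

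How firmly a member was set apart from NEG differed between treatments. The counts that follow use the contrast that chose the genes, so they describe the members and are no evidence for them. Each is set beside the share of all 12121 genes tested. These genes reach a mean FPKM of 1, while the members come from genes with at least 5, so the 2 sets are not alike in level. By limma on log2(FPKM + 1), at an adjusted p under 0.05, 99 members were lower than NEG in Trp (27.5% of all genes), 98 in Lys (25.8%), 95 in Met (29.9%), 94 in Val (36.2%) and 92 in His (34.4%). In Leu 80 were called (29.6%), in Ile 78 (25.1%), in Phe 49 (7.97%), in POS 44 (18.5%) and in Arg 26 (4.35%). In Thr no member was called (0% of all genes), although 90 members had an unadjusted p under 0.05, as did 2525 of all genes in the direction of lower values, and voom of limma on the recovered reads also called 0. Single libraries moved these counts both ways, and the share of all genes moved with them. Without NEG_2 the count in Thr was 63 (12.2% of all genes). In Phe it was 88 without NEG_2 (20.6%) and 1 without Phe_5 (0.0330%). In Arg it was 56 without Arg_4 (10.7%) and 3 without NEG_1 (0.767%). In POS it was 81 without POS_1 (23.4%), and 18 without either NEG_2 (17.7%) or POS_6 (14.4%). Leaving out 1 of the 12 libraries moved the count by over 1.5 times for 8 of them in Arg, 10 in Phe and 7 in POS. Some processing settings, given in the last section, also lowered the counts of Arg, Phe and POS by over 1.5 times. No member was called lower than NEG in all 10 EAA (0% of all genes). In 42 members 7 of the 10 comparisons passed (9.88%), in 31 there were 8 (4.22%), in 9 there were 9 (0.751%), and in the other 18 there were 6 or fewer. All 11 comparisons share the 6 NEG libraries.

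Ranges gave a different order of the treatments. All 6 treated libraries lay below all 6 NEG libraries in 87 members for Lys (16.9% of all 12121 genes), 86 for Leu (26.5%), 84 for Trp (15.3%), 49 for Arg (8.91%), 48 for Ile (16.7%) and 43 for Met (14.0%). For His and Phe this held in 40 members each (19.3% and 9.41%), for Val in 32 (11.8%), for Thr in 26 (6.17%) and for POS in 14 (12.4%). Val thus had the lowest medians and few members without overlap, with Val_3 at the level of NEG. In 3 members all treated libraries lay below NEG in each of the 10 EAA (0.190% of all genes). In 3 other members this held in none of the 10 (60.4%), a share that also counts genes lying wholly above NEG.

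The single EAA were also compared with each other. The rule treats Arg, His, Ile, Lys, Met, Phe, Thr and Trp alike, so these 8 were compared with each other in 48 libraries, without NEG, POS, Leu and Val. The same libraries entered the score through the highest of the single-EAA medians, so the counts are not independent of the choice and describe the members. In the limma F test 53 members differed among the 8 EAA at an adjusted p under 0.05 (71.1% of all 12121 genes), and 81 members did so without Arg_4 (85.4%). Each EAA was then set against the mean of the other 7. Thr was higher in 47 members (31.5% of all genes) and lower in none (23.2%), with a median difference over the 100 members of 0.32 against 0.080 over all genes. All 100 members had a difference above 0 in Thr. Phe was higher in 24 members (18.5%) and lower in none (13.7%), with a median of 0.28 against 0.051 over all genes, and 98 members were above 0. The share of all genes above 0 was not counted for Thr or Phe, and both medians over all genes were above 0 too. In 23 members both Phe and Thr passed (17.1% of all genes). The libraries of Phe and Thr also had many genes above 0, 17571 to 17911 in Phe and 17629 to 17956 in Thr, against 16694 to 17121 in Lys, 15211 to 17233 in Ile, 15674 to 17296 in His, 11838 to 17403 in Arg, 16813 to 17753 in Trp and 16619 to 18058 in Met. The part of this in the differences was not tested. Leaving out 1 library at a time gave 36 to 58 members for Thr, the fewest without Thr_2 (2915 of all 12121 genes) and the most without Arg_4 (4503 genes). For Phe it gave 7 to 35, the fewest without Phe_6 (6.62%) and the most without Arg_4 (25.7%).

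The other 6 EAA gave few calls. His was lower in 11 members (19.3% of all genes) and higher in none (14.1%), a count that was 33 without His_1 (24.5%), 27 without Arg_4 (30.6%) and 0 without His_5 (10.3%). Arg was lower in 5 (11.6%) and higher in none (10.0%), but without Arg_4 it was higher in 2 (11.4%) and lower in 1 (11.1%). Met was lower in 3 (8.90%) and higher in none (8.71%), or lower in 14 without Arg_4 (15.3%). Ile was higher in 2 (6.95%) and lower in 1 (6.76%). No member passed for Lys (0.256% of all genes higher, 0.107% lower) or Trp (0.347% higher, 0.248% lower) in the main fit, although Trp had the lowest median of the 8, at −0.23, and 13 members were lower in Trp without Arg_4 (2.90%). The standard error of a member in these contrasts was 0.16 in the median member (range 0.068 to 0.39). The median difference over the members was 0.064 in Ile and −0.039 in Lys.

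**Figure D5:**
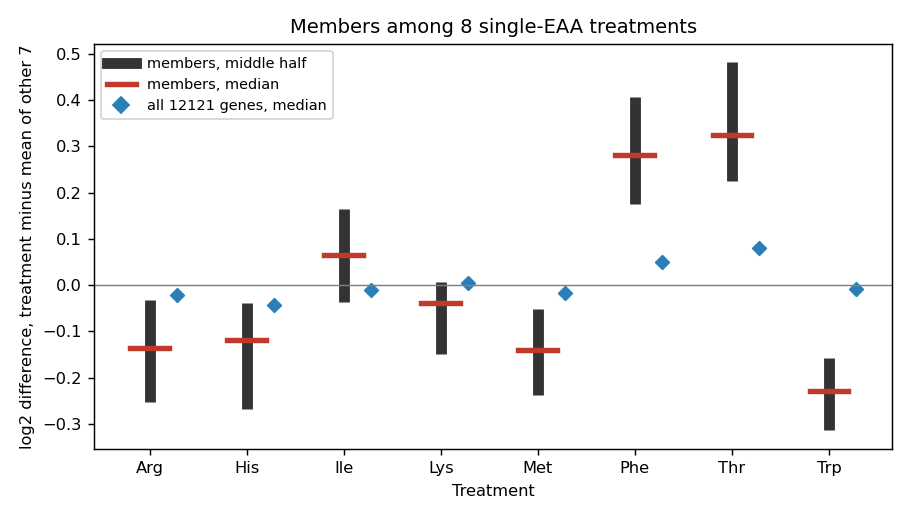
Difference of each of 8 single-EAA treatments from the mean of the other 7 on log2(FPKM + 1); dark bars span the middle part of the 100 members (first to last quartile limit), red lines are their medians and blue diamonds are medians over all 12121 genes. Thr (0.32) and Phe (0.28) stand above 0 and above the diamonds, and Trp (−0.23) is the lowest.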

How the data were processed

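RNA-seq of 72 libraries was used, 6 for each of 12 treatments. The authors checked read quality with Trimmomatic, mapped with Hisat2 and deposited FPKM per gene. The submitters' processing notes name HISAT2 2.0.5, StringTie 1.3.3b, featureCounts 1.5.0-p3 and DESeq2 1.20.0. For the genome, the build was not given in the sources used here. Whole reads and gene lengths were recovered from the deposited FPKM (100% of the values above 0 within 0.001 of a whole number), with 12006111 to 18602430 reads per library. Counting error alone gave an SD of 0.063 on the log2 scale at the median member's reads and 0.22 at the lowest; copies made by PCR were not marked, so this covers counting only.

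The members and lists were chosen with earlier results of these data known. Tests used limma 3.58.1 (R 4.3.3) (empirical Bayes with a trend) on log2(FPKM + 1) of the 12121 genes that reached an average FPKM of 1, rows without Ensembl identifiers among them, with Benjamini-Hochberg adjustment over all of them: the 12 libraries of NEG and 1 treatment, or the 48 of 8 EAA. Fold changes on this scale understate changes of low genes. The scripts were tested on simulated data. By the rule for named genes, 2 identifiers are printed where no table gives names, those with the most negative scores; planned lists of gene symbols and markers and a search for promoter motifs were not run. The trend on length was removed per library as the median deviation in 20 length classes. Descriptions and figures used Python 3.11.15. Replicate numbers were checked for pairing by the correlation of deviations from the group means. All 6 pairs exceeded 0.1 in Trp against NEG only (0.10 to 0.24), and there the replicate block left the count at 99. In Thr 3 of 6 pairs did, and 4 of the 6 Thr libraries correlated best with the NEG library of their own number (3 in Trp). Pairing outside Trp was therefore not settled.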

Additional observations from a re-analysis of the deposited data

Results flagged for a closer look

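In 36 groups of 6 libraries (the mean of log2(FPKM + 1) over the members, and the FPKM of the 2 identifiers shown, in each of the 12 treatments), a library stood apart from its replicates by Dixon's test in 9, where chance gives about 1 in 20. For the mean over the members these were NEG_2 (6.32, the others 5.43 to 5.65), Arg_4 (3.68, the others 4.71 to 5.30), His_1 (5.50, the others 4.57 to 4.83), Ile_6 (4.67, the others 5.03 to 5.24), Leu_1 (2.60, the others 4.70 to 4.89) and Val_3 (5.60, the others 4.44 to 4.60). For the FPKM of ENSBTAG00000046569 they were NEG_2 (38.7, the others 15.6 to 22.1), Leu_1 (0, the others 8.70 to 13.0) and Lys_1 (9.05, the others 13.7 to 15.1). No library of ENSBTAG00000045628 stood apart. The same libraries enter several of these groups, so the 9 are not independent.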

How the results depend on the processing

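Of the 100 members, 36 were among the first 100 by means per treatment and 42 with the length trend removed. With that trend removed and without NEG_2 there were 40, and without Leu_1, Arg_4, POS_4 and NEG_2 there were 62. The other settings gave 71 to 100, the 71 under scaling by total recovered reads. Under that scaling 768 genes met the conditions, against 981, and the score of the 100th was −0.20, against −0.24. Total reads over the factor in the FPKM ran from 1.03 (NEG_6) to 1.19 (NEG_2) in NEG. In the treated libraries they ran from 0.92 (POS_6) to 1.06 (His_1). Under every single library left out 20 members stayed, ENSBTAG00000045628 but not ENSBTAG00000046569 among them. The cause of the loss by means was not tested. Leaving out 1 library at a time gave 73 to 100 members among the first 100. Of the counts of members lower than NEG, those of Arg, Phe, Thr and POS moved by over 1.5 times. With no filter on low values Arg had 10, Phe 6 and POS 14. For this setting, the replicate block, voom and removal of the length trend no share of all genes is given here. A change of the members there cannot be told from a change of all genes. With the replicate block Arg had 1 and Phe 0. Of the same-numbered pairs with NEG, 2 of 6 correlated over 0.1 in Arg and 0 of 6 in Phe. Whether the replicate numbers mark a pairing is not settled by these values. Voom on recovered reads gave 27 in POS, and removal of the length trend 28 in Phe. Without Leu_1, Arg_4 and POS_4 Arg had 56 (10.7% of all genes). Without NEG_2 as well Arg had 66, Phe 88 (20.6%) and Thr 63 (12.2%). No share of all genes is given for the 66. Leaving out 1 library at a time gave 3 to 56 in Arg, 1 to 88 in Phe, 0 to 63 in Thr and 18 to 81 in POS.

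Of the counts among 8 EAA, the F test gave 41 to 81 over single libraries left out. The exclusion of the 3 libraries with the fewest genes removes only Arg_4 from this fit, whether or not NEG_2 is also left out, and gave 81. With it His had 27, Met 14, Trp 13 and Arg 3. With no filter Arg had 3 and His 5, all lower. With voom Arg had 3 and His 7, all lower, and Trp had 1. With the length trend removed His had 20, all lower, Ile 5 (2 higher and 3 lower), Met 5 and Trp 1. No share of all genes is given for these settings, so their counts cannot be set against it. The replicate block and the scaling by total recovered reads each gave 1 in Trp. Single libraries left out gave 3 to 6 in Arg, 0 to 33 in His, 2 to 14 in Met, 7 to 35 in Phe and 0 to 13 in Trp. Rescaling by median ratios had the same factor, 1.01, in all 72 libraries, so it could hardly move any result. Thr stayed within 1.5 times of its 47 in every setting run, and no setting reversed a score of the 2 identifiers. With the length trend removed these scores were −0.27 (ENSBTAG00000046569) and −0.18 (ENSBTAG00000045628). Length removal, voom, total-read scaling and the exclusion of several libraries were added after the data were seen. Between same-numbered libraries of the 8 EAA, 52 of 168 correlations exceeded 0.1.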
